A study of Macaca mulatta with 18 samples.

Results

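Fatty acid oxidation is the path by which resting and fasted muscle draws most of its energy from fat. Long-chain fatty acids cross the plasma membrane with the help of the scavenger receptor CD36, are carried in the cytosol by the binding protein FABP3, are passed into the mitochondrion by the carnitine palmitoyltransferases CPT1B and CPT2, and are then shortened in the matrix by acyl-CoA dehydrogenases (ACADVL, ACADM) and by the trifunctional protein (HADHA, HADHB). Electrons from the dehydrogenases reach ubiquinone through ETFDH. PDK4, a kinase that phosphorylates and inactivates pyruvate dehydrogenase, is known as a switch from glucose to fat and is a classical target of fasting and of the PPAR nuclear receptors.

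These 10 genes were taken by symbol from the probe annotation of the Illumina human HT-12 BeadChip, which lists 15 probes for them among the 47323 probes of the arrays. RNA had come from frozen biopsies of the vastus lateralis, a thigh muscle of mixed fibre type, of 18 male rhesus monkeys (Macaca mulatta) fed standard chow. The labels name no treatment, and whether the animals were fasted before the biopsy is not given in the sources used here. There were 6 young animals (6.00 ± 0.00 years, mean ± SEM per the labels), 6 middle-aged animals (16.48 ± 0.31 years) and 6 old animals (26.83 ± 0.22 years), with 1 array for each animal. Because the probes were designed for human transcripts, an intensity depends on the amount of the monkey transcript and also on its match to the probe, and levels were compared between animals for 1 probe at a time, never between probes. Median intensity per array was 71.0 to 97.0 and 24.5% to 30.5% of all probes had a detection p under 0.05, with overlapping ranges in the 3 ages. Other properties of the arrays differed by age. The highest intensity of each middle-aged array was below that of every old array. The SD of the natural log intensity had a mean of 0.788 in middle-aged, 0.836 in young and 0.841 in old animals. The levels used below are divided by this SD, so bright probes were scaled up more in middle-aged animals. The 9 skeletal muscle markers tested, among them ACTA1, CKM and MB, were detected on every array. Young replicate 6 stood apart from the other young animals in markers of other cells: its scores were 1.87 for fibroblast genes (-0.47 to 0.69 in the other young animals), 0.90 for endothelial genes (-0.44 to 0.15) and -0.76 for skeletal muscle genes (-0.05 to 0.19).

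Only part of this pathway could be read with these probes. Of the 15 probes, 11 were detected (p under 0.05) on 6 or more arrays and entered the fit, and they covered 8 of the 10 genes. The single probes of FABP3 (ILMN_2136971, intensity 47.0 to 63.0) and HADHA (ILMN_1712751, 54.0 to 80.0) were above background on 0 of 18 arrays, as was the CD36 probe ILMN_1784863 (42.0 to 54.0). The ACADVL probe ILMN_2263466 (66.0 to 111.0) was above background on 1 array. The first 3 of these probes were below the median intensity of the array on all 18 arrays, and the ACADVL probe on 11. FABP3 and HADHA were therefore not measurable here, which does not mean that they were not expressed. In the rhesus annotation HADHA and HADHB both lie on chromosome 13, and the HADHB probe, unlike that of HADHA, was detected on all 18 arrays. The match of the HADHA probe to the monkey transcript was not tested.

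**Figure D1:**
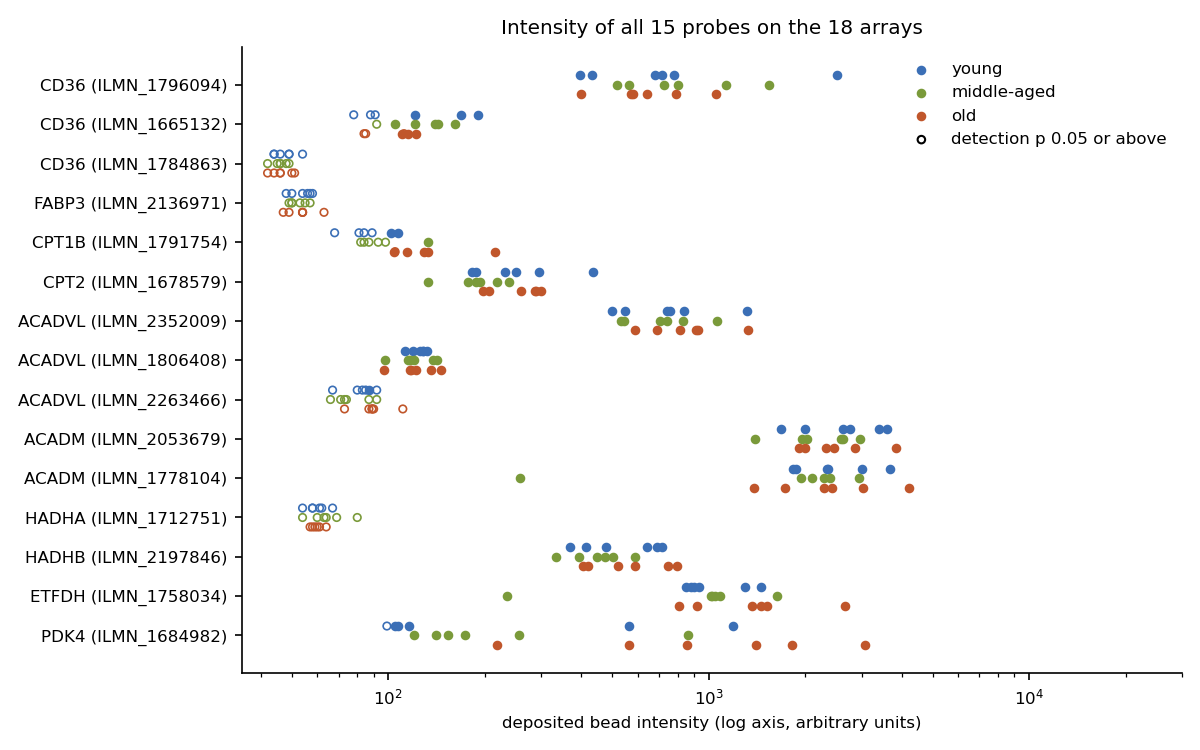
Deposited bead intensity (log axis, arbitrary units) of all 15 probes, with 1 point per array, filled where the detection p was under 0.05 and open where it was not; the 3 colors are the ages. The probes of FABP3 and HADHA and the CD36 probe ILMN_1784863 are open throughout, and the PDK4 probe runs from 99.0 to 3079.

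Levels are given as log2 units relative to the mean of each array (the Z score of the log intensity, rescaled by 1.19, the SD of log2 intensity averaged over arrays), and differences are log2 fold changes from a limma fit of all 18 animals with Benjamini-Hochberg adjustment over 14188 probes. At an adjusted p of 0.05, 0 of the 11 member probes passed between old and young animals, where 0.19% of all probes did, 0 passed between old and middle-aged animals, where 0.874% did, and 0 passed between middle-aged and young animals, where 0.0211% did. At an unadjusted p under 0.05 there were 2 member probes between old and young (11.1% of all probes), 2 between old and middle-aged (17.5%) and 0 between middle-aged and young (10.4%). Both pairs were PDK4 and CPT1B, each with its higher mean in old muscle. CPT1B met the detection filter only through the old animals, so its p is not independent of that selection. The median over the 8 genes, with the brightest probe of each, was 0.06 between old and young, 0.16 between old and middle-aged and 0.12 between middle-aged and young, against -0.01, 0.02 and -0.03 over all 8589 genes tested. In each comparison 5 of the 8 genes lay above 0. Each age serves in 2 of these comparisons, so they are not independent of each other.

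**Figure D2:**
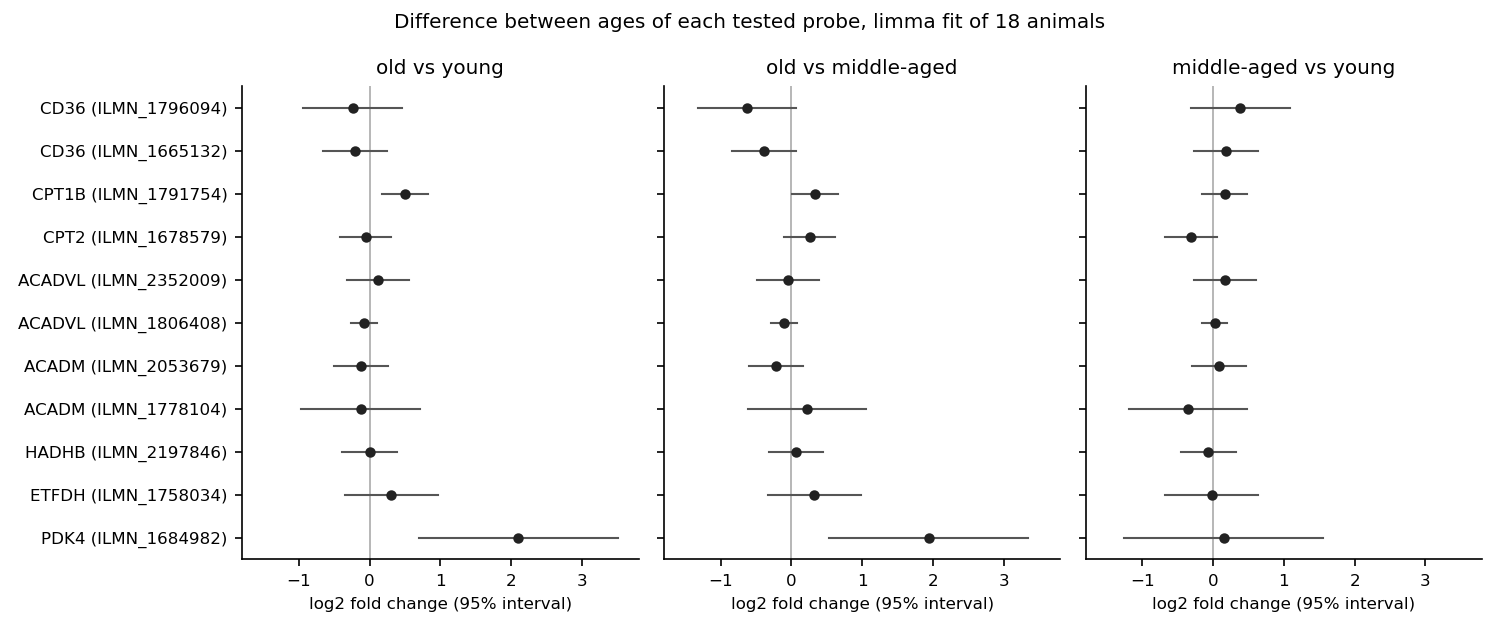
Log2 fold change (points) and 95% interval (lines) of each of the 11 tested probes in the 3 comparisons of age, from the limma fit. The intervals of PDK4 and CPT1B lie above 0 in old vs. young and in old vs. middle-aged muscle. Every other interval includes 0. CPT1B met the detection filter only through the old animals.

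PDK4 was the member with the widest differences. Its level in young replicates 1 to 6 was 3.67, 0.02, -0.12, 0.11, 0.03 and 2.13. In middle-aged replicates 1 to 6 it was 0.46, 0.17, 1.36, 3.19, 0.82 and 0.76, and in old replicates 1 to 6 it was 1.21, 2.32, 2.96, 4.47, 3.73 and 3.73. Thus 4 of the 6 young animals lay near 0 and the other 2, replicates 1 and 6, did not, while all 6 old animals were above 1. The 4 animals had intensities of 99 to 116 with detection p from 0.0052 to 0.0831. Their signal was thus close to background, which limits the folds against young muscle. The ages overlapped: 3 of the 6 old animals exceeded every young and every middle-aged animal, and 4 of the 6 young animals were below every old one. The mean was 0.97 ± 1.57 in young (SD, n = 6), 1.12 ± 1.09 in middle-aged (n = 6) and 3.07 ± 1.17 in old muscle (n = 6). Old muscle was above young by a log2 fold change of 2.10 (95% interval 0.69 to 3.50, a fold of 4.28; limma adjusted p = 0.199) and above middle-aged by 1.94 (0.54 to 3.35, a fold of 3.85; limma adjusted p = 0.145), whereas middle-aged and young muscle differed by 0.15 (-1.25 to 1.56, limma adjusted p = 0.957). The moderated F test over the 3 ages gave an unadjusted p of 0.00926 and a limma adjusted p of 0.16, and by this test 0 of the 11 member probes passed, against 0.529% of all probes.

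The spread between animals of 1 age was large for this gene. The SD within ages was 1.29 for PDK4 against a median of 0.203 over all probes, and 99.8% of the probes tested had a smaller one. Leaving out 1 animal moved the old vs. young difference between 1.82 and 2.64 (limma adjusted p from 0.0779 to 0.378) and the old vs. middle-aged difference between 1.66 and 2.36 (0.0826 to 0.278). Without young replicate 6 and old replicates 1 and 2 together, 3 animals chosen with earlier results of these data known, the differences were 2.98 (limma adjusted p = 0.0578) and 2.60 (0.0994). Old replicates 1 and 2 had the lowest PDK4 levels of the old animals and young replicate 6 one of the 2 high levels of the young, so that leaving them out widens the old vs. young difference by construction. By the mean r with the other arrays, young replicate 6 was the lowest of the 18 (0.9442), whereas old replicates 1 and 2 (0.9695 and 0.9676) lay within the range of the rest. The study's own criteria, a pairwise test without adjustment, a Z ratio above 1.5 and a mean Z score above 0, did select PDK4 in old vs. young and in old vs. middle-aged muscle, where they selected 2.14% and 3.16% of all probes. It was the sole member probe they selected; between middle-aged and young muscle they selected 0 members and 2.18% of all probes. After Benjamini-Hochberg adjustment over all probes tested, PDK4 no longer passed by these criteria.

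Part of the red blood cell markers differed in the same comparison. Of 7 erythroid markers 5 were tested, and 3 passed between old and young muscle (0.19% of all probes), the hemoglobin genes HBA1 (4.16), HBA2 (3.68) and HBB (3.58; limma adjusted p = 0.0314 for each). HBA1 and HBA2 are near-identical copies, so that their probes may not tell them apart. They passed in 9, 9 and 10 of the 18 fits that left out 1 animal, with a highest adjusted p of 0.0829, 0.0783 and 0.0746. The erythroid score over the 5 genes spanned -1.28 to -0.63 among young animals, -0.89 to 0.69 among middle-aged animals and -0.70 to 3.16 among old animals. Its r over the 18 animals was 0.34 with PDK4 (permutation p = 0.164, adjusted over 72 relations 0.476) and 0.34 with CPT1B (permutation p = 0.171, adjusted 0.476). The Spearman rho over the same animals was 0.43 with PDK4 (permutation p = 0.0774, adjusted 0.557) and 0.49 with CPT1B (permutation p = 0.0435, adjusted 0.551). The part of blood in the members' differences was not tested.

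**Figure D3:**
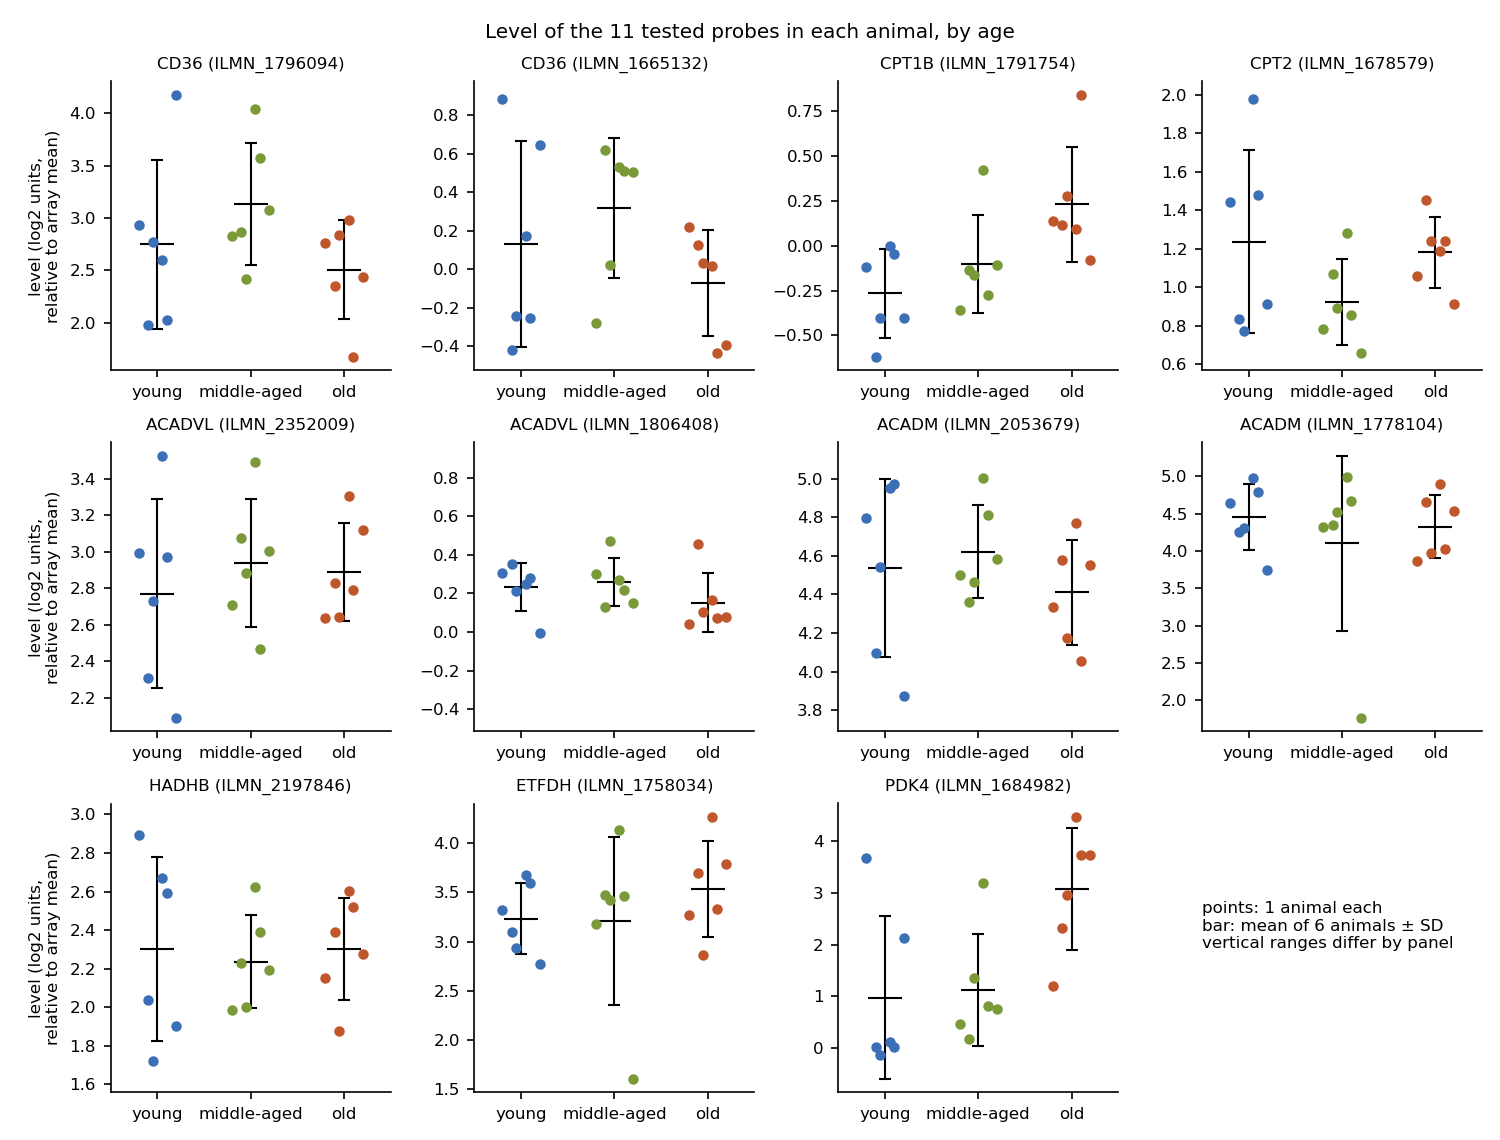
Level (log2 units relative to the array mean) of each of the 11 tested probes in each animal (points) by age, with the mean of 6 animals and the SD as bars; the vertical range differs by panel. PDK4 is near 0 in 4 of 6 young animals and above 1 in all 6 old animals, the CPT1B levels of old animals lie above most of the others, and middle-aged replicate 6 lies far below the rest in the panels of ETFDH and of the second ACADM probe.

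CPT1B, the muscle form of the outer-membrane enzyme that commits acyl groups to the carnitine shuttle and the step that malonyl-CoA inhibits, was the other member with a p under 0.05. Its level in young replicates 1 to 6 was -0.12, -0.62, -0.40, -0.00, -0.04 and -0.40. In middle-aged replicates it was -0.36, -0.13, -0.16, 0.42, -0.28 and -0.11, and in old replicates 0.14, 0.11, 0.28, 0.09, 0.84 and -0.08. All old animals but replicate 6 were above every young animal, while middle-aged replicate 4 was above all old animals but replicate 5. The log2 fold change was 0.50 between old and young muscle (95% interval 0.17 to 0.82; limma adjusted p = 0.18), 0.33 between old and middle-aged (0.01 to 0.66; limma adjusted p = 0.27) and 0.16 between middle-aged and young (-0.16 to 0.49; limma adjusted p = 0.756). The probe was dim, with an intensity of 68.0 to 216.0, and had a detection p under 0.05 in 2 of 6 young, 1 of 6 middle-aged and 5 of 6 old animals. Without the old animals it would not have reached the 6 arrays of the filter. It thus entered the fit only through the age where its mean was highest, and its unadjusted p is not independent of that selection. A background correction with normexp raised the differences to 0.75 and 0.58, with limma adjusted p of 0.249 and 0.251.

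CPT2, which re-forms acyl-CoA on the matrix side, was detected on every array (intensity 133.0 to 436.0). Young animals had levels of 0.77 to 1.98 (median 1.18), middle-aged animals 0.66 to 1.28 (median 0.87) and old animals 0.91 to 1.45 (median 1.21). The middle-aged values lay low in the range of the others, with 4 of 6 below every old animal. The log2 fold change was -0.05 between old and young (95% interval -0.42 to 0.31), 0.26 between old and middle-aged (-0.10 to 0.62) and -0.31 between middle-aged and young (-0.67 to 0.05; unadjusted p = 0.0871 and adjusted p = 0.559 by limma). The only other members of the shuttle with values were drawn from a list of 7 further genes, of which 4 were tested and 0 passed in any comparison. Among them SLC22A5, the plasma membrane carnitine transporter, differed by -0.10, 0.09 and -0.19 in old vs. young, old vs. middle-aged and middle-aged vs. young muscle, CRAT, which makes short-chain acylcarnitines, by 0.23, 0.04 and 0.19, and CPT1A, the liver form of CPT1, by -0.08, -0.02 and -0.06.

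CD36 had its lowest mean in old muscle, with ranges that overlapped. By the probe ILMN_1796094, detected on all arrays, the level in young replicates 1 to 6 was 2.94, 1.97, 2.77, 2.60, 2.02 and 4.18. In middle-aged replicates it was 2.83, 2.87, 2.42, 4.05, 3.58 and 3.07, and in old replicates 2.76, 2.35, 2.84, 2.99, 1.67 and 2.44. Young replicate 6 was the highest of all animals and old replicate 5 the lowest, and 3 of the 6 middle-aged animals were above every old one. The log2 fold change was -0.24 between old and young (95% interval -0.94 to 0.46; limma adjusted p = 0.861), -0.63 between old and middle-aged (-1.32 to 0.07; limma adjusted p = 0.337) and 0.39 between middle-aged and young (-0.31 to 1.08; limma adjusted p = 0.728). Without young replicate 6 the old vs. young difference was 0.05. A second probe, ILMN_1665132, detected in 3 of 6 young, 5 of 6 middle-aged and 3 of 6 old animals, gave -0.20, -0.39 and 0.19 in the same order. Across the 18 animals the levels of both probes had an r of 0.72 (rho 0.75). The probes share the gene and the arrays but are annotated to different transcripts, so this is a description and no replicate.

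CD36 is also made by capillary endothelium, adipocytes and macrophages, and its level moved with the endothelial markers. The endothelial score, the mean over 7 tested genes (PECAM1, VWF, CDH5, TEK, CLDN5, ESAM and EMCN) of the level relative to all animals, spanned -0.44 to 0.90 among young animals, -0.37 to 0.52 among middle-aged animals and -0.32 to 0.07 among old animals. Over the 18 animals CD36 and this score had a Pearson r of 0.81 (permutation p = 3e-05, adjusted over 72 relations 0.00216) and a Spearman rho of 0.82 (permutation p = 9e-05, adjusted 0.00648), and r was 0.83 without the 2 animals farthest out in the score. All 7 endothelial markers had a log2 fold change below 0 between old and middle-aged muscle (median -0.26), and 0 of them passed. With the adipocyte score the r of CD36 was 0.72 (permutation p = 0.00073, adjusted 0.0263) but fell to 0.44 without the 2 farthest animals, and the rho of 0.54 had an adjusted permutation p of 0.392. The 72 relations set each of the 8 member genes against each of 9 marker scores, and none but these passed by r. In whole muscle, fewer cells of a type and less RNA per cell cannot be told apart, and the part of the endothelium in the CD36 values was not tested.

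**Figure D4:**
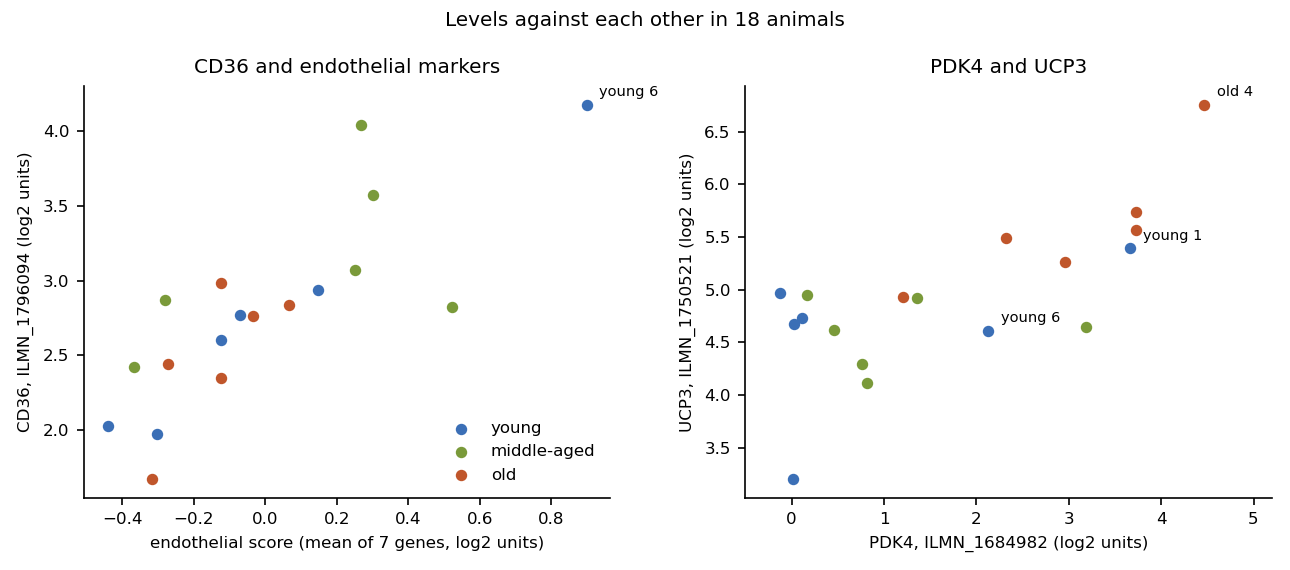
Left, CD36 level against the endothelial score, and right, UCP3 level against PDK4 level, each point 1 of 18 animals and each axis in log2 units, colored by age. CD36 follows the endothelial score across animals of all ages, with young replicate 6 at the upper end, and 5 of the 6 old animals lie in the upper right of the PDK4 and UCP3 plot with young replicate 1, while old replicate 1 is at 1.21 for PDK4 and 4.93 for UCP3.

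Other genes of uptake and binding gave no call. Of 10 genes listed 7 were tested, 0 passed, and the median log2 fold change was -0.18 between old and young, -0.20 between old and middle-aged and 0.11 between middle-aged and young. FABP5, a fatty acid binding protein of skin, fat and endothelium, spanned 1.26 to 2.83 among young animals, 1.29 to 2.89 among middle-aged animals and 0.66 to 1.98 among old animals. Its difference was -0.76 between old and middle-aged muscle (limma adjusted p = 0.17) and -0.52 between old and young (0.52). DBI, which binds acyl-CoA, differed by -0.30 and -0.20 in the old vs. young and old vs. middle-aged comparisons, and GPIHBP1, which anchors lipoprotein lipase on capillaries, by -0.04 and -0.13. Of 12 genes of acyl-CoA synthesis and hydrolysis 9 were tested and 0 passed. ACSL4, an acyl-CoA synthetase with a preference for arachidonic acid, had 0.66 in old vs. middle-aged muscle (limma adjusted p = 0.206), where ACOT2, a mitochondrial acyl-CoA thioesterase, had -0.28 and ACSS2, which activates acetate, -0.43.

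The enzymes of the matrix spiral differed little between the ages. ACADVL, which opens the oxidation of long chains at the inner membrane, by the probe ILMN_2352009 had levels between 2.09 and 3.53 in young animals, between 2.47 and 3.49 in middle-aged animals and between 2.64 and 3.31 in old animals. The difference was 0.12 between old and young (95% interval -0.32 to 0.56) and -0.05 between old and middle-aged (-0.49 to 0.39). A second ACADVL probe, ILMN_1806408, gave -0.08 (-0.26 to 0.10) and -0.11 (-0.29 to 0.07), but the 2 ACADVL probes had an r of 0.16 across the 18 animals and so did not report the same ranking of animals. This second probe was dim, with an intensity of 97.0 to 146.0, so its small differences and low r may be limited by signal near background. The 2 probes are also annotated to different transcripts of ACADVL, and the part of this in the low r was not tested. HADHB, the beta subunit of the trifunctional protein with the thiolase activity, had levels between 1.72 and 2.89 in young animals, between 1.99 and 2.62 in middle-aged animals and between 1.88 and 2.60 in old animals. Its log2 fold change was 0.00 between old and young muscle with an interval of -0.39 to 0.39 (folds of 0.765 to 1.31).

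ACADM, the dehydrogenase for medium chains, was measured by a pair of probes that differed in 1 animal. By ILMN_2053679 young animals had 3.87 to 4.97 (median 4.67), middle-aged animals 4.36 to 5.01 (median 4.54) and old animals 4.05 to 4.77 (median 4.44). This gave a log2 fold change of -0.13 between old and young (95% interval -0.51 to 0.25) and -0.21 between old and middle-aged (-0.59 to 0.17). By ILMN_1778104 middle-aged replicate 6 stood at 1.76 (intensity 257.0), while the lowest other middle-aged animal was at 4.32. By the first probe the same animal had a level of 4.58, within the range of the other middle-aged animals. Its intensity there, 1398, was however the lowest of the 18 arrays. Levels are divided by the SD of each array, which was lowest on this one. This animal turned the old vs. middle-aged difference of the second probe to 0.22 (-0.61 to 1.06); without it the value was -0.25. The r of the 2 ACADM probes was 0.42 over all 18 animals and 0.91 without middle-aged replicate 6.

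ETFDH, the flavoprotein that hands electrons from the acyl-CoA dehydrogenases to ubiquinone, had its lowest level in the same animal. It was 3.32, 3.09, 2.94, 3.67, 3.59 and 2.77 in young replicates 1 to 6, 3.18, 3.47, 3.42, 4.13, 3.47 and 1.60 in middle-aged replicates and 3.27, 3.70, 2.87, 4.27, 3.33 and 3.79 in old replicates. The log2 fold change was 0.31 between old and young (95% interval -0.35 to 0.97; limma adjusted p = 0.798) and 0.33 between old and middle-aged (-0.34 to 0.99; limma adjusted p = 0.638), and without middle-aged replicate 6 the latter was 0.00. Deviations of ETFDH from the age means had an r of 0.55 with those of the first ACADM probe, ILMN_2053679. With those of the second ACADM probe the r was 0.95, and 0.92 without middle-aged replicate 6. These are descriptions over 18 animals whose points share arrays. On the array of middle-aged replicate 6, 37 of 14188 probes lay over 1 log2 unit below the nearest animal of the age and past Dixon's critical value. There were 26 in old replicate 5, 13 in young replicate 6 and at most 7 in the others. The SD of log intensity of middle-aged replicate 6, 0.711, was the lowest of the 18 arrays.

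**Figure D5:**
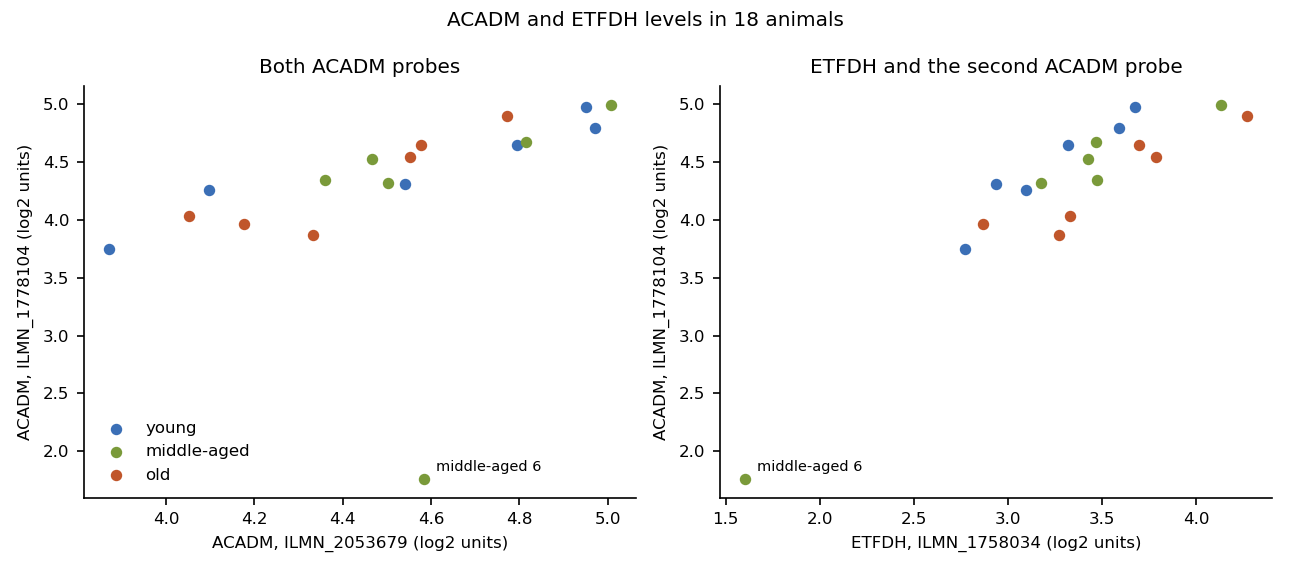
Level of the second ACADM probe (vertical axes, log2 units) against the first ACADM probe (left) and against ETFDH (right), each point 1 of 18 animals, colored by age. Middle-aged replicate 6 is at 1.76 on the second ACADM probe and at 1.60 for ETFDH, but at 4.58 on the first ACADM probe.

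Across animals most pairs of oxidation enzymes had positive correlations, and those of CD36 with them were near 0 over all 18 animals. After removal of the age means, the 28 pairs of member genes had a median r of 0.45 (range -0.09 to 0.76; 24 pairs above 0), with all points sharing the 18 arrays. The highest were ACADVL with ACADM (0.76), CPT2 with HADHB (0.72), ACADM with HADHB (0.69) and CPT2 with ACADVL (0.68). CD36 had an r between -0.09 and 0.03 with CPT1B, CPT2, ACADVL, ACADM, HADHB and ETFDH, and 0.44 with PDK4. Without the 2 animals farthest out in CD36, its r with these enzymes ran from -0.28 (CPT1B) to 0.39 (ACADM), and that with PDK4 was 0.19. PDK4 with CPT1B gave 0.34, and 0.06 without the 2 animals farthest out in CPT1B. Leaving out the 2 animals farthest out in the other gene likewise lowered the r of PDK4 with HADHB (0.47 to 0.21) and ETFDH (0.27 to 0.12). It raised the r of PDK4 with ACADVL (0.25 to 0.62), ACADM (0.16 to 0.44) and CPT2 (0.14 to 0.25).

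Further enzymes of the matrix gave the same picture of small differences. Of 15 listed 13 were tested and 0 passed in any comparison, with a median log2 fold change of 0.03 between old and young, 0.01 between old and middle-aged and -0.03 between middle-aged and young. ACAD9, an acyl-CoA dehydrogenase also needed for complex I assembly, had 0.36 in old vs. middle-aged muscle (limma adjusted p = 0.158), ECI2, an enoyl-CoA isomerase, had -0.34 in middle-aged vs. young muscle (0.409), and HSD17B10, a dehydrogenase of short chains, had 0.18 in old vs. middle-aged muscle (0.302). For comparison, the score of 7 genes of mitochondrial mass such as CS, VDAC1 and HSPD1 lay between -0.40 and 0.31 in young animals, between -0.16 and 0.28 in middle-aged animals and between -0.15 and 0.03 in old animals.

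The oxidation enzymes are known to differ between fibre types, and the slow fibre markers varied widely between animals. The slow fibre score over 7 genes, among them MYH7, MYL2 and TNNT1, spanned -1.77 to 1.52 among young animals, -2.61 to 2.22 among middle-aged animals and -2.22 to 0.81 among old animals. The fast fibre score over 8 genes was narrower, at -0.38 to 0.54, -0.44 to 0.13 and -0.77 to 0.46 in the same order. All 7 slow fibre genes had log2 fold changes below 0 in old vs. young (median -0.30) and in old vs. middle-aged muscle (median -0.59), and 0 of them passed. The r of the slow fibre score with the 8 member genes ran from -0.30 for CD36 to 0.34 for HADHB, and no permutation p was under 0.05 after adjustment. The part of fibre type in the members' values was not tested.

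On the side of glucose, the pyruvate dehydrogenase complex and its regulators held 13 listed genes, of which 9 were tested and 0 passed. PDHB, the beta subunit of the E1 component that PDK4 inhibits, had levels between 3.55 and 4.66 in young animals, between 4.45 and 5.07 in middle-aged animals and between 3.95 and 4.36 in old animals. All 6 old animals were below all 6 middle-aged animals, a separation in this direction that 1.07% of all probes had. Old was below middle-aged muscle by a log2 fold change of -0.57 (95% interval -0.88 to -0.25; limma adjusted p = 0.0726) and that between old and young was -0.25 (limma adjusted p = 0.585). Levels are divided by the SD of each array, which had its lowest mean in middle-aged animals. The part of this scaling in the PDHB difference was not tested. PDK3, another kinase of the complex, had 0.24 in old vs. middle-aged muscle (limma adjusted p = 0.139), -0.24 in middle-aged vs. young (0.312) and 0.00 in old vs. young, and MPC2, a subunit of the mitochondrial pyruvate carrier, had -0.26 in old vs. young muscle (0.687).

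Among 12 fasting and PPAR target genes 11 were tested and 0 passed; 9 of the 11 lay above 0 in old vs. young muscle (median 0.12) and 7 in old vs. middle-aged (median 0.09). UCP3, a mitochondrial carrier whose mRNA is known to increase with fasting, was 5.39, 3.20, 4.97, 4.73, 4.67 and 4.61 in young replicates 1 to 6, 4.61, 4.95, 4.92, 4.65, 4.12 and 4.29 in middle-aged replicates, and 4.93, 5.49, 5.26, 6.76, 5.57 and 5.73 in old replicates. In 5 of the 6 old animals it was above every middle-aged animal, and old replicate 1 was below middle-aged replicate 2 by a narrow margin. UCP3 differed by 1.03 in both old vs. young (95% interval 0.38 to 1.67; limma adjusted p = 0.17) and old vs. middle-aged muscle (0.39 to 1.68; limma adjusted p = 0.0989). UCP2 had 0.54 in old vs. middle-aged muscle (limma adjusted p = 0.16), and IMPA2, an inositol monophosphatase, 0.40 in old vs. young (0.394).

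The regulators of the program did not pass either. Of 15 PPAR and PGC-1 regulators 11 were tested, with a median of -0.09 in old vs. young and -0.07 in old vs. middle-aged muscle. LPIN1, a phosphatidate phosphatase that also acts with PGC-1alpha, spanned 2.54 to 3.71 among young animals, 2.86 to 3.57 among middle-aged animals and 3.40 to 4.79 among old animals, with log2 fold changes of 0.64 (limma adjusted p = 0.269) and 0.58 (0.188). RXRA, the partner of the PPARs, had 0.38 in old vs. young muscle (0.418) and ESRRA, a nuclear receptor of mitochondrial genes, -0.40 in old vs. middle-aged (0.294). Of 6 genes of malonyl-CoA control 3 were tested: ACACB, which makes the malonyl-CoA that inhibits CPT1B, had 0.42 (limma adjusted p = 0.307) and 0.39 (0.213) in the comparisons with old muscle, PRKAG3, the muscle AMPK gamma subunit, -0.71 and 0.07, and ACLY, ATP citrate lyase, -0.37 and -0.04.

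In triglyceride lipolysis 7 of 11 genes were tested and 0 passed. MGLL, monoglyceride lipase, spanned 0.39 to 1.57 among young animals, 0.07 to 0.60 among middle-aged animals and 0.23 to 0.82 among old animals, with -0.56 in middle-aged vs. young muscle (limma adjusted p = 0.252) and -0.43 in old vs. young (0.339). G0S2, an inhibitor of adipose triglyceride lipase, had -0.55 in old vs. middle-aged muscle (0.273) and GPAM, which starts glycerolipid synthesis, -0.41 in old vs. young (0.604). In ketone body use 3 of 5 genes were tested. BDH1, the beta-hydroxybutyrate dehydrogenase, had -0.55 in middle-aged vs. young muscle (0.473), ACAT1 had -0.30 in old vs. middle-aged (0.339), and OXCT1 differed by -0.10, 0.09 and -0.19. Over all 10 lists 73 of 102 genes were tested and 0 passed in any comparison, with medians of 0.00, 0.01 and 0.02.

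The genes whose levels were most like those of PDK4 over the 18 animals, among 8588 genes, were TNFSF15 (r 0.87), PLEKHB2 (0.86), FUT6 (0.84), LMOD3 (0.84) and LRRFIP1 (0.84). Of these PLEKHB2 rose by 0.53 and FUT6 by 0.64 between middle-aged and old muscle (limma adjusted p = 0.0407 for both). In this comparison 0.874% of all probes passed. The other 3 did not pass in any comparison. The ranking kept the age means, and PDK4 itself was higher in old than in middle-aged muscle by 1.94. Such a selection favors genes that differ between these ages, so the calls of PLEKHB2 and FUT6 are not independent of it. Both calls depended on single animals: each passed in 7 of 18 fits that left out 1 animal, and the highest adjusted p was 0.0961 for PLEKHB2 and 0.0922 for FUT6, both without old replicate 4. With 15 animals, leaving out young replicate 6 and old replicates 1 and 2, it was 0.0631 and 0.0550. On the same scale CPT1B ranked 136 with an r of 0.59 and UCP3 ranked 22 with 0.72. FOXO1, a transcription factor known to activate PDK4 and named here after its values were seen, had an r of 0.63 over the levels and ranked 80. Over deviations from the age means its r with PDK4 was 0.84, the highest among the 73 list genes tested, and 0.75 without the 2 animals farthest out. FOXO1 was highest among young animals in replicates 1 (2.08) and 6 (1.204), the same animals in which PDK4 was high, against 0.35 to 0.49 in the other 4. In middle-aged replicates 1 to 6 it was 0.55, 0.91, 1.09, 1.28, 0.71 and 0.85. In old replicates 1 to 6 it was 0.43, 0.00, 0.77, 1.13, 1.77 and 0.86, so that old replicate 2, with PDK4 at 2.32, had the lowest FOXO1 level of all animals. The mean of FOXO1 differed by -0.00 between old and young and by -0.07 between old and middle-aged muscle. The part of FOXO1 in the PDK4 levels was not tested.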

How the data were processed

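The authors hybridized total RNA of each biopsy to Illumina HT-12 human BeadChips and exported the data with GenomeStudio 2011.1; the deposited intensity values of each probe, each with a detection p-value from the authors' software, were not normalized. The authors also deposited a table of processed values per array, a Z score of the natural log intensity, which recomputed scores matched to within 0.0184. Whether background had been subtracted is not given in the sources used here. Gene symbols came from the platform annotation: of 47323 probes 30113 had 1 symbol, 8 had several and 17202 had none.

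Here each array's log intensities were centered, divided by their SD and multiplied by 1.19. The 14188 probes detected (p under 0.05) on 6 or more of the 18 arrays were fitted with limma 3.58.1 in R 4.3.3, with 3 ages and no covariates, and p-values were adjusted by Benjamini-Hochberg. The fit was tested on simulated data. Correlations with marker scores used 100000 permutations of the animals, two-sided. The members, the lists and the exclusion of 3 animals were chosen with earlier results of these data known. Named were all members, up to 3 genes with the smallest p of each list and the 5 genes most like PDK4; FOXO1 and the hemoglobin genes were added after their values were seen. Nothing in the labels ties replicate numbers between ages to a shared source. Scan dates and slides were not given. How many arrays there were set the precision. Alternatives were quantile normalization, neqc (offset 16), the authors' values, no filter, a detection p under 0.01, the brightest probe per gene, array weights, a replicate block, a fit of the compared ages alone, each animal left out, 15 animals, and the methods' t-test. No probe or transcript sequence is printed, since none was used here.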

Additional observations from a re-analysis of the deposited data

Results flagged for a closer look

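In 3 of 45 combinations of a member probe and an age, 1 animal was farther from the other 5 than Dixon's critical value for 6 samples allows; chance gives about 1 in 20 such groups. The level of the second ACADM probe (ILMN_1778104) in middle-aged replicate 6 was 1.76, with the nearest animal at 4.32 (ratio 0.792). The CPT1B level in middle-aged replicate 4 was 0.42, with the nearest at -0.11 (ratio 0.675). The level of the ACADVL probe ILMN_1806408 in old replicate 2 was 0.46, with the nearest at 0.16 (ratio 0.701). ETFDH in middle-aged replicate 6, at 1.60 with the nearest at 3.18, had a ratio of 0.622, just under the critical value.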

How the results depend on the processing

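The number of member probes passing was 0 in every comparison and direction under all limma settings tried and with the methods' t-test after Benjamini-Hochberg; at the methods' thresholds it was 1 (PDK4) higher in old vs. young and 1 in old vs. middle-aged muscle.

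Over all probes, 13 were higher and 14 lower in old vs. young muscle, 56 and 68 in old vs. middle-aged, and 0 and 3 in middle-aged vs. young. The counts in old vs. young were 5 and 3 with quantile normalization, 6 and 2 with neqc, 10 and 9 without a filter, 3 and 5 with the brightest probe per gene, 79 and 41 with array weights, 1 and 1 with only these ages, 47 and 70 with 15 animals, 0 and 0 with the methods' t-test after adjustment, and 505 and 510 at its thresholds. In old vs. middle-aged muscle they were 62 and 142 with neqc, 28 and 43 without a filter, 20 and 36 with the brightest probe, 35 and 72 with only these ages, 16 and 23 with 15 animals, 23 and 55 with the adjusted t-test, and 859 and 636 at its thresholds. In middle-aged vs. young muscle they were 9 and 21 with array weights, 0 and 10 with only these ages, 1 and 11 with the adjusted t-test, and 351 and 681 at its thresholds. Some of these settings held fewer probes or animals, and the causes of the shifts were not tested.

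With the replicate block the counts were 0 and 0, 7 and 16, and 0 and 0. The correlations gave no sign that the numbers pair the animals: same-numbered animals of different ages had an r of deviations from -0.259 to 0.206 (3 of 18 pairs above 0.1), and 1 of 18 animals correlated best with its own number. With slides and scan dates not given, these r cannot tell whether same-numbered animals shared a slide or run. Leaving out 1 animal gave 1 to 63 higher and 0 to 49 lower probes in old vs. young muscle, the highest counts without young replicate 6. It gave 1 to 118 and 6 to 105 in old vs. middle-aged, the lowest counts without old replicate 4 and the highest without old replicate 3 (higher) and young replicate 1 (lower), and 0 to 1 and 1 to 7 in middle-aged vs. young.

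No sign of PDK4 or CPT1B changed in the comparisons with old muscle. The differences that changed sign were small: in old vs. young, CD36 (ILMN_1796094) was 0.0208 with array weights and 0.0212 with 15 animals, and HADHB -0.0629 with 15 animals. In old vs. middle-aged, ACADVL (ILMN_2352009) was 0.0268 with 15 animals. In middle-aged vs. young, ACADVL (ILMN_1806408) was -0.0233 and ACADM (ILMN_2053679) -0.0492 with 15 animals, ETFDH was 0.0529 with quantile normalization, 0.0433 with neqc and 0.078 with array weights, and HADHB was 0.0164 and 0.0279 with quantile normalization and neqc.

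Without 1 animal, the differences that changed sign ran, in old vs. young, from -0.40 to 0.0459 (CD36), -0.0183 to 0.27 (ACADVL ILMN_2352009), -0.15 to 0.0944 (CPT2) and -0.12 to 0.12 (HADHB). In old vs. middle-aged they ran from -0.14 to 0.0600 (ACADVL ILMN_2352009) and -0.25 to 0.40 (ACADM ILMN_1778104). In middle-aged vs. young they ran from -0.26 to 0.69 (PDK4), -0.0233 to 0.0496 (ACADVL ILMN_1806408), -0.0492 to 0.17 (ACADM ILMN_2053679), -0.53 to 0.12 (ACADM ILMN_1778104), -0.20 to 0.30 (ETFDH) and -0.18 to 0.0526 (HADHB). With 15 animals the old vs. young medians of the malonyl-CoA and PPAR lists were -0.05 and 0.07. Signals near background limit CPT1B, which did not pass the filter at a detection p of 0.01, and the undetected probes. They also limit PDK4 in most of the young animals and the dim ACADVL probe ILMN_1806408.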
